A study of Mus musculus with 3 samples.

Results

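Transcripts of 10 effector cytokine and chemokine genes were followed in mouse CD8 T cells cultured with cholesterol. The genes were Ifng, Tnf, Lta, Csf2, Il2, Il3, Ccl3, Ccl4, Ccl5 and Xcl1, chosen by name from a total of 19505 genes measured on the arrays, and each was represented by 1 named probe set. The cells were stimulated through CD3 and CD28, the antigen receptor complex and its costimulatory receptor, and held under Tc1 cytokine conditions, which favour cytotoxic effectors that secrete interferon-gamma. The 3 groups were the Tc1 culture with no added cholesterol (control), the same culture with 0.5 µg/ml cholesterol, and the same culture with 0.75 µg/ml cholesterol, with 1 array each. The labels give no strain, animal age, pooling, duration of exposure or carrier for the cholesterol, and cholesterol and its carrier cannot be told apart in these data. Because each group is 1 array, no difference below has a replicate check, no p-value or standard deviation can be given, and precision is limited by having 3 arrays in all.

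Activated CD8 T cells act on their surroundings through secreted proteins as well as by killing. Stimulation of the antigen receptor activates the transcription factors NFAT, AP-1 and NF-kappaB, which drive cytokine promoters, while T-bet and STAT4 favour Ifng under Tc1 conditions. Many cytokine transcripts carry AU-rich elements and are degraded quickly, so their levels follow recent stimulation. Ccl3, Ccl4, Ccl5 and Xcl1 encode chemokines that draw other leukocytes to activated T cells, and resting memory CD8 T cells store Ccl5 transcripts for rapid use.

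Several of the genes lie side by side. In the RefSeq gene table of GRCm38.p6, Tnf and Lta are direct neighbours among protein-coding genes and Ltb lies on the other side of Tnf. Csf2 and Il3 are direct neighbours as well, and Ccl5, Ccl9, Ccl6, Ccl3 and Ccl4 follow one another. The promoters of 6 genes are shown because these genes cover the different outcomes: Csf2 and Ccl3 were the members past a 2-fold difference, Tnf, Lta and Ifng were bright on all arrays, and Il2 was dim on all arrays. Each sequence holds the 250 bases before the transcript start in the RefSeq promoter table of GRCm38.p6, read along the gene's strand. Capitals mark GGAAA on either strand (TTTCC when read on the printed strand), the core that NFAT factors bind and that ETS factors can also contact.
Csf2 (chr11:54249900-54250149, minus strand): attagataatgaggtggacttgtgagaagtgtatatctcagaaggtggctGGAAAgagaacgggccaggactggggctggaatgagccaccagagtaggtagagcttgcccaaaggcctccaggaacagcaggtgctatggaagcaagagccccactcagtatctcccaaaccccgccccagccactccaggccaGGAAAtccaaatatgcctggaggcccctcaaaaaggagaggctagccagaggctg
Ccl3 (chr11:83649379-83649628, minus strand): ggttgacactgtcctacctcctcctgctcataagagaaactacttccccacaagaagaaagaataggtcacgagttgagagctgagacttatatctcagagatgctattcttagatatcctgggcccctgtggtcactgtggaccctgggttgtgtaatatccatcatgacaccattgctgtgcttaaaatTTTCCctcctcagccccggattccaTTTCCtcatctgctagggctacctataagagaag
Tnf (chr17:35202008-35202257, minus strand): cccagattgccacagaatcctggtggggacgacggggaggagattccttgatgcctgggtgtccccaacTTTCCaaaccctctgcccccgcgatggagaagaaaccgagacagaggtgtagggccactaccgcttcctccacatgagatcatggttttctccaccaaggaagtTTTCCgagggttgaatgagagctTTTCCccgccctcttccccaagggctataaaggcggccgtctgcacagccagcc
Lta (chr17:35205352-35205601, minus strand): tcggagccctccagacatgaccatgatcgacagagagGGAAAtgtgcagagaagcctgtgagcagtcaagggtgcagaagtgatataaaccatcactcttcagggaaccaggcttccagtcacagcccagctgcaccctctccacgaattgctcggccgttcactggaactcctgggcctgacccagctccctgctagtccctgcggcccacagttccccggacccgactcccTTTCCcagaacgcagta
Ifng (chr10:118440796-118441045, plus strand): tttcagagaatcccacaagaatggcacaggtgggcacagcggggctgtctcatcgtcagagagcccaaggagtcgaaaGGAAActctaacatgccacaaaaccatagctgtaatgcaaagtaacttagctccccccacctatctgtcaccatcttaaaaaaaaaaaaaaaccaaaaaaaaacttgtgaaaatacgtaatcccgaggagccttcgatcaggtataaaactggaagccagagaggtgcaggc
Il2 (chr3:37125955-37126204, minus strand): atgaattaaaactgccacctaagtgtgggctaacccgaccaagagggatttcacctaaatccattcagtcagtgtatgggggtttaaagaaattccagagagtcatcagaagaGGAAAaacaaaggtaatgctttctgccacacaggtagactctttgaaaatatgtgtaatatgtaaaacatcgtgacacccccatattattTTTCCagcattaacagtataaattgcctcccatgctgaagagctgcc
The letters GGAAA occurred in all 8 of the member windows that the table holds (Ifng, Tnf, Lta, Csf2, Il2, Il3, Ccl3 and Xcl1), and in 55.6% of all 32851 windows of the same length. Tnf had 3 matches, and Csf2, Ccl3, Lta and Il2 had 2 each. The pattern TATAAA, also searched on both strands, was present in 4 of 8 member windows (Ifng, Tnf, Il2 and Lta) and in 12.4% of all windows. In Ifng, Tnf and Il2 it began 29 to 31 bases before the start, and in Lta 167 bases before it. No member window held the NF-kappaB consensus, which was present in 3.90% of all windows. Nor did any hold the AP-1 pattern TGANTCA, the cyclic AMP response pattern TGACGTCA or the sterol regulatory pattern TCACNCCAC, which were present in 6.75%, 1.55% and 1.05% of all windows. These are matches of letters within a short window and not measured binding.

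The arrays had closely similar overall levels, with median intensities between 32.4 and 33.0. A background level of 102 was used throughout, which is the highest of the arrays' 95th percentiles of negative-control probe sets. All 7 measured T cell and CD8 markers were above it on every array, with Cd8a at 4225, 4164 and 3313 and Cd3e at 4364, 4650.1 and 4594 over the control, 0.5 and 0.75 µg/ml arrays. None of the 9 macrophage, monocyte and dendritic cell markers and none of the 4 NK and gamma-delta T cell markers was above background on any array. In bulk RNA, fewer cells of a type and less RNA per cell cannot be told apart.

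Of the 10 genes, 4 were above the background level on all arrays (Ifng, Tnf, Ccl5 and Lta) and 2 at 0.75 µg/ml alone (Csf2 and Ccl3). The other 4 were under it on every array (Il2, Il3, Ccl4 and Xcl1). The plot of intensities by dose shows these 3 patterns.

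**Figure D1:**
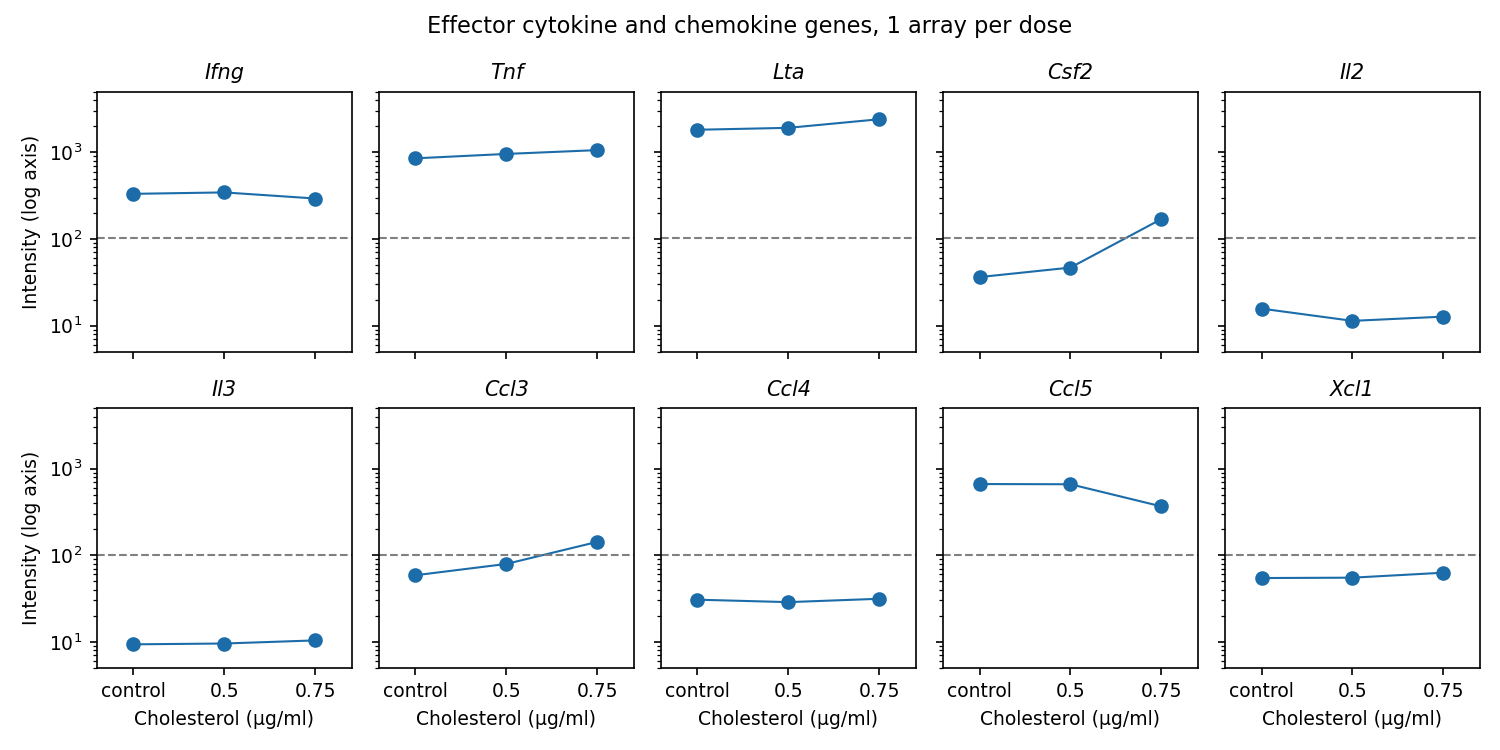
Intensity of each gene (log axis) on the control, 0.5 and 0.75 µg/ml arrays, 1 point per array, with the background level of 102 as a dashed line. Csf2 and Ccl3 cross the line at 0.75 µg/ml, Ccl5 is lower there at 367, and Il2, Il3, Ccl4 and Xcl1 stay under the line.

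Ifng, which encodes interferon-gamma, the signature cytokine of Tc1 cells that activates macrophages and raises antigen presentation, differed little between the arrays. Its intensity was 333 in the control, 346 at the lower and 294 at the higher dose. The log2 difference was 0.05 at 0.5 µg/ml against the control, -0.18 at 0.75 µg/ml against the control and -0.23 between 0.75 and 0.5 µg/ml. As a yardstick in place of replicates, the middle 95% of differences among the 7309 genes above background on all arrays ran from -0.34 to 0.32 at 0.5 µg/ml and from -0.68 to 0.48 at 0.75 µg/ml against the control. The differences of Ifng lay inside these ranges at both doses.

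Tnf and Lta encode tumour necrosis factor and lymphotoxin-alpha, related cytokines that share TNF receptors and promote inflammation and cell death. Tnf was at 856 in the control, 962 at the lower and 1065 at the higher dose. Lta was at 1831 in the control, 1927 at the lower and 2422 at the higher dose. Both were thus lowest in the control and highest at 0.75 µg/ml. The log2 difference of Tnf was 0.17 at 0.5 µg/ml and 0.32 at 0.75 µg/ml, and that of Lta was 0.07 at 0.5 µg/ml and 0.40 at 0.75 µg/ml, each against the control. These values lay inside the middle 95% of genes above background on all arrays, and 6.75% of the 10940 genes past the level filter (a mean log2 value of at least 5.02, which is an intensity of 32.4) were higher at 0.75 µg/ml by as much as Lta or more. The adjacent gene Ltb, named here for its position, encodes the membrane partner of lymphotoxin-alpha and went the other way, at 2304 in the control, 2034 at the lower and 1959 at the higher dose (log2 difference of -0.23 at 0.75 µg/ml against the control).

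Csf2 encodes GM-CSF, a growth factor for granulocytes, macrophages and dendritic cells that activated T cells release. It had the largest deposited difference of the 10 genes. Its intensity was 36.4 in the control, 46.8 at the lower and 170 at the higher dose, so the control and the lower dose were both under the background level. With those dim values raised to background, Csf2 was at least 1.67-fold higher at 0.75 µg/ml than in the control, and at least 1.67-fold higher than at 0.5 µg/ml. These bounds rest on 1 array, where 2.85% of negative-control probe sets were as bright as Csf2 or brighter. The deposited values gave a log2 difference of 2.23 at 0.75 µg/ml against the control. That lay outside the middle 95% of negative-control probe sets, which ran from -1.22 to 1.07, and 4 genes past the level filter, Csf2 included, were higher by this much or more. With dim values raised, the difference was 0.74, and 50 genes (0.457%), Csf2 included, were higher by this much or more.

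Other cells that can make GM-CSF were examined through their markers. Mast cell, basophil and neutrophil markers summed to 222 at 0.75 µg/ml, against 265 in the control, over 9 measured genes. As deposited, 6 of these markers were higher at 0.75 µg/ml and 3 lower, Kit among the lower. None of them was above background at 0.75 µg/ml, against 1 in the control, the growth factor receptor gene Kit, which was at 42.4 against 133. The mast cell or basophil protease genes Mcpt8, at 42.3 against 15.8, and Cpa3, at 29.8 against 11.3, had higher deposited values at 0.75 µg/ml, all under the background level, and the IgE receptor genes Fcer1a and Ms4a2 were at 14.5 against 15.4 and 10.9 against 9.33. The part of such cells in the Csf2 difference was not tested.

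Il2 and Il3, the other growth factor genes, were dim. Il2, which encodes the autocrine growth factor of T cells, was at 15.7 in the control, 11.3 at the lower and 12.7 at the higher dose. Il3, which encodes a growth factor of early blood cells, mast cells and basophils, was at 9.34 in the control, 9.55 at the lower and 10.4 at the higher dose. Of the negative-control probe sets, 43.5% to 55.8% were as bright as Il2 or brighter across the arrays, and 58.2% to 65.8% as bright as Il3 or brighter, so no change of either gene could be measured. Il3 lies next to Csf2, and it was under background at the dose where Csf2 was above it.

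Among the chemokines, Ccl3 was higher and Ccl5 lower at 0.75 µg/ml. Ccl3 encodes MIP-1 alpha, a chemokine that recruits macrophages and T cells. It was at 58.7 in the control, 79.3 at the lower and 143 at the higher dose, with the control and the lower dose under background. At the higher dose, 3.47% of negative controls were as bright as Ccl3 or brighter. Ccl3 was at least 1.40-fold higher at 0.75 µg/ml than in the control, and the deposited values gave a log2 difference of 1.28, which was outside the middle 95% of the negative controls. Of the genes past the level filter, 18, Ccl3 included, were higher by this much or more, and with dim values raised, 203 (1.86%) were higher by its difference of 0.49 or more. The macrophage, monocyte and dendritic cell markers, from cells that also make this chemokine, summed to 192 at 0.75 µg/ml against 184 in the control, with 0 of 9 above background on either array.

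Ccl4, which encodes the related chemokine MIP-1 beta, was under background at the dose where its neighbour Ccl3 was above it. It was at 30.6 in the control, 28.7 at the lower and 31.4 at the higher dose, where 20.7% to 22.7% of negative controls were as bright or brighter. Xcl1 encodes lymphotactin, which attracts the cross-presenting dendritic cells that bear XCR1. It was at 54.5 in the control, 55.0 at the lower and 62.8 at the higher dose, also under background on every array. No fold is given for Ccl4 or Xcl1.

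Ccl5 encodes RANTES, a chemokine that attracts T cells and monocytes. It was at 665 in the control, 661 at the lower and 367 at the higher dose, all above background. The array at 0.75 µg/ml stood low, while 0.5 µg/ml differed from the control by -0.01 on the log2 scale. The difference at 0.75 µg/ml was -0.86 against the control, or 1.81-fold lower, and -0.85 against 0.5 µg/ml. It lay outside the middle 95% of genes above background on all arrays and outside that of the 1165 positive-control probe sets past the level filter, which ran from -0.61 to 0.66. Of the genes past the level filter, 2.20% were lower at 0.75 µg/ml by as much or more. The neighbours Ccl9 and Ccl6 between Ccl5 and Ccl3, named for their position, were under background on all arrays, at 48.7 against 39.1 and at 57.0 against 37.4 for 0.75 µg/ml against the control.

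**Figure D2:**
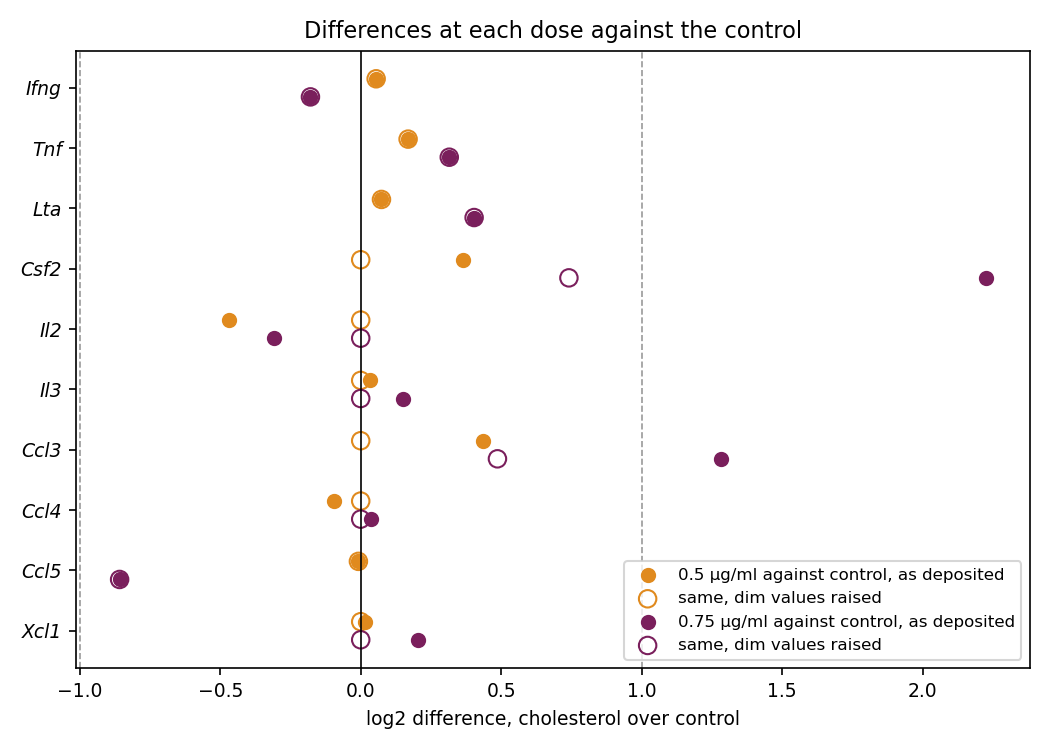
log2 difference of each gene at 0.5 and 0.75 µg/ml over the control, which both comparisons share. Filled points are deposited values, open rings have values under 102 raised to it, and dashed lines mark 2-fold. Csf2 and Ccl3 pass 2-fold at 0.75 µg/ml as deposited and not with dim values raised, and Ccl5 lies at -0.86.

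At 0.5 µg/ml, 0 of 10 genes differed at least 2-fold from the control, where 0.146% of the 10940 genes past the level filter did so. At 0.75 µg/ml, 2 of 10 (Csf2 and Ccl3) were at least 2-fold higher, where 0.356% of genes were, and 0 of 10 were at least 2-fold lower, where 1.57% of genes were. With dim values raised, 0 of 10 passed 2-fold at 0.75 µg/ml, where 1.03% of genes did. Between the doses, 1 of 10 (Csf2) was at least 2-fold higher at 0.75 than at 0.5 µg/ml, where 0.402% of genes were, and 0 of 10 were at least 2-fold lower, where 1.19% were. With dim values raised, 0 of 10 passed 2-fold between the doses, where 0.795% of genes did, and at 1.5-fold 3 of 10 (Csf2, Ccl3 and Ccl5) did as deposited, where 5.52% of genes did. At a lower threshold of 1.5-fold, Ccl5 joined as a lower gene at 0.75 µg/ml against the control, where 4.55% of genes were lower by that much. In either direction and at any size, 7 of 10 were higher at 0.75 µg/ml than in the control, where 50.2% of genes past the filter were. The other 3 of 10 (Ifng, Il2 and Ccl5) were lower, where 47.7% were. These counts include the 4 members under background on every array. Of the 6 members above background on at least 1 array, 4 were higher and 2 lower. Of all 8012 genes above background on at least 1 array, 4029 were higher and 3855 lower. Quantile normalization turned the sign of Ccl4, leaving 6 of 10 higher, where 53.4% of genes were higher and 46.4% lower, and centring each array on its median kept 7 of 10 higher, where 62.9% of genes were higher and 37.1% lower. Of the 10 genes, 7 passed the level filter, Il2, Il3 and Ccl4 not among them.

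The median log2 difference over all 10 genes was 0.04 at 0.5 µg/ml against the control, 0.18 at 0.75 µg/ml against the control and 0.15 between the doses. Over all genes past the level filter the corresponding medians were 0.01, 0.0016 and -0.0057. With dim values raised, the 10-gene median was 0.00 in each comparison.

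**Figure D3:**
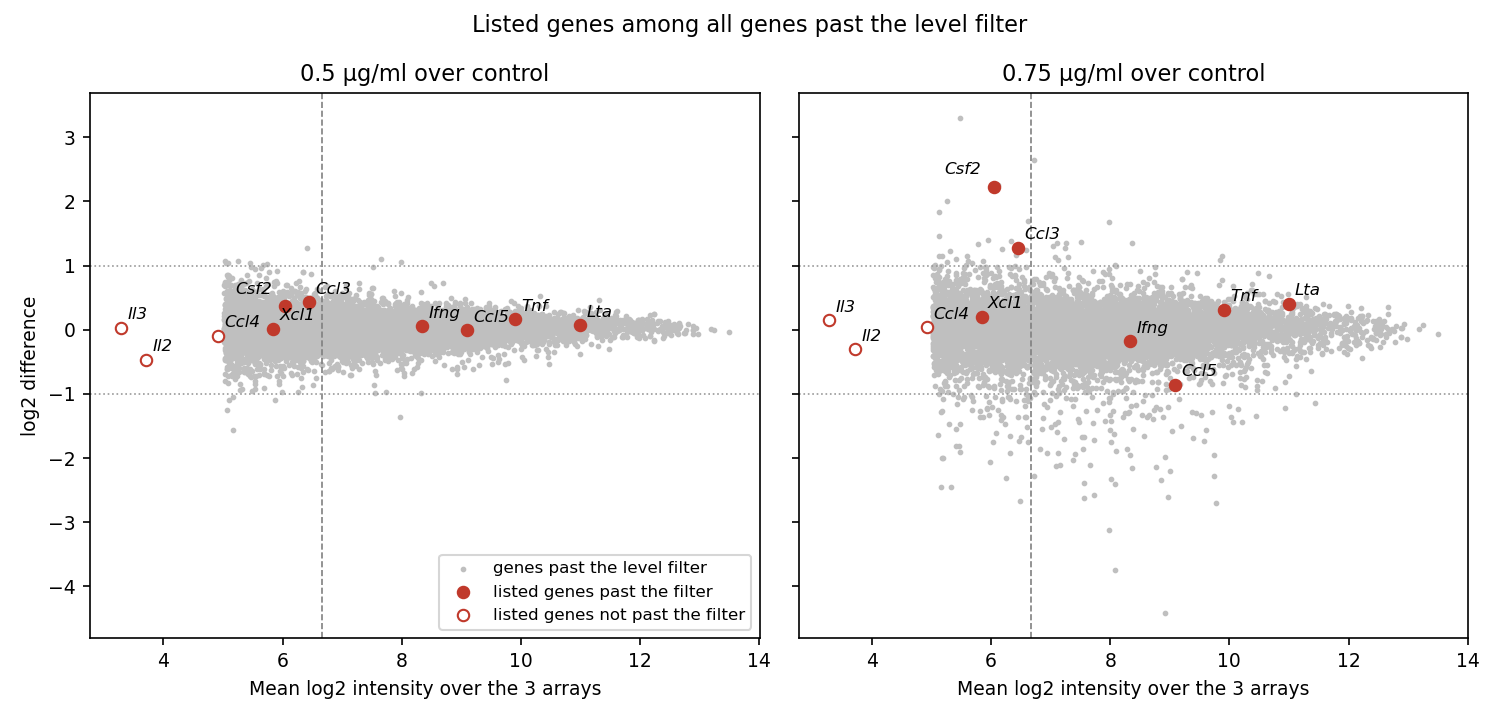
log2 difference at 0.5 µg/ml (left) and 0.75 µg/ml (right) over the control against the mean log2 intensity, with grey points for the 10940 genes past the level filter. Red points are the listed genes, open where the filter was not passed, the dashed line is the background level of 102 and dotted lines mark 2-fold. Csf2 and Ccl3 stand high at 0.75 µg/ml and sit left of the background line on their mean level.

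Other secreted and membrane ligands were taken from lists. Of 22 measured interleukins and other T cell cytokines, 13 were higher and 8 lower at 0.75 µg/ml than in the control, and 0 differed 2-fold in either direction. Of genes past the level filter, 50.2% were higher and 47.7% lower. Only 9 of the 22 were above background on any array, with 5 of these higher and 4 lower. After centring, 17 of the 22 were higher and 5 lower, where 62.9% and 37.1% of genes were. The median log2 difference of the 22 was 0.22 as deposited, or 0.00 with dim values raised. Il24, which encodes an interleukin of the IL-10 family, was at 1597 at 0.75 µg/ml against 1116 in the control. Csf1, the macrophage growth factor gene, was at 131 against 72.0, at least 1.28-fold higher. Ebi3, which encodes a shared subunit of IL-27 and IL-35, was at 274 against 373, and Mif, which encodes macrophage migration inhibitory factor, at 1749 against 2229.

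TNF superfamily ligands also went both ways, with 7 of 13 higher and 5 lower at 0.75 µg/ml and 0 past 2-fold (median 0.08). Above background on at least 1 array were 7 of the 13, with 5 of these higher and 2 lower. Of genes past the level filter, 50.2% were higher and 47.7% lower. After centring, 9 of the 13 were higher and 4 lower, where 62.9% and 37.1% of genes were. Tnfsf10, the gene for the death ligand TRAIL, was at 319 against 211, and Fasl, which encodes Fas ligand, at 145 against 193. Tnfsf8, the CD30 ligand gene, was at 341 against 270, and Tnfsf14, which encodes LIGHT, at 145 against 116. Of the 31 other chemokine genes, 2 were above background on any array. Cxcl10, an interferon-induced chemokine gene, was at 31.3 at 0.75 µg/ml against 105 in the control, or at least 1.03-fold lower, and Ccl25 was at 158 against 163. Over all 31, most of them under background on every array, the median was -0.08, with 12 higher and 18 lower. With dim values raised the median was 0.00, with 0 higher and 2 lower. After centring, 15 were higher and 16 lower, where 62.9% and 37.1% of genes past the level filter were.

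For receptors of these ligands the median difference was -0.09 at 0.75 µg/ml against the control, with 5 of 14 higher and 9 lower, or 7 in each direction after centring. Of genes past the level filter, 50.2% were higher and 47.7% lower, or 62.9% and 37.1% after centring. Only Ifngr2, the signalling subunit of the interferon-gamma receptor, passed 2-fold among the receptors, at 387 in the control, 252 at the lower and 144 at the higher dose. Its log2 difference from the control was -0.62 at 0.5 µg/ml and -1.42 at 0.75 µg/ml. Of genes past the level filter, 1.57% were at least 2-fold lower at 0.75 µg/ml. Ifngr1, the ligand-binding subunit of that receptor, was at 978 against 1394. Il2ra, the high-affinity subunit of the interleukin-2 receptor, was at 1017 against 838, and Tnfrsf1b, which encodes TNF receptor 2, at 727 against 612.

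Genes known to respond to interferon-gamma or to STAT5, the factor downstream of interleukin-2, were lower in 13 and higher in 3 of 17 measured at 0.75 µg/ml, with a median of -0.19 (-0.17 with dim values raised). Of genes past the level filter, 47.7% were lower and 50.2% higher. After centring, 11 of the 17 were lower and 6 higher, with a median of -0.12. Genes past the filter were then lower in 37.1% and higher in 62.9%, with a median of 0.06. At 0.5 µg/ml, 14 of the 17 were lower and 3 higher, with a median of -0.14. There 44.5% of genes past the level filter were lower and 52.9% higher. The guanylate-binding protein gene Gbp2 was at 1870 in the control, 1462 at the lower and 1014 at the higher dose. Irf1, a transcription factor that interferon-gamma induces, was at 856 at 0.75 µg/ml against 1388 in the control, and the immunity-related GTPase gene Iigp1 at 234 against 361. Cxcl10 is on this list as well. These named genes are interferon-induced. The STAT5 targets on the list, named after their values were seen, went both ways. Socs2, which encodes a suppressor of cytokine signalling, was at 1728 at 0.75 µg/ml against 1181 in the control (log2 difference of 0.55), and Cish, of the same family, at 1396 against 1401. Socs3 and Socs1, also of this family and on the list, were at 110 against 158 (-0.52) and at 1524 against 1633 (-0.10). Il2ra is on this list too and had a log2 difference of 0.28. The kinase gene Pim1 was at 2801 against 3153, and Osm, which encodes oncostatin M, at 465 against 480.3. In the same arrays Ifng itself differed by -0.18 at 0.75 µg/ml. Ifngr2, Gbp2, Irf1 and Iigp1 were named for having the largest differences on their lists, so their sizes cannot be compared with that of Ifng. Among interferon-induced genes of the list not picked this way, Gbp3 differed by -0.49, Irgm1 by -0.42, Cd274 by -0.33 and Igtp by -0.19. Ciita and Cxcl9, also on the list, were under background on every array and were not lower. Ciita was at 28.4 at 0.75 µg/ml against 25.9 in the control, and Cxcl9 at 17.0 on both.

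For transcription factors that act on cytokine genes the median was -0.04 at 0.75 µg/ml against the control, with 16 of 35 higher and 19 lower and 0 past 2-fold. Over all genes past the level filter the median was 0.0016, with 50.2% higher and 47.7% lower. When each array was centred on its median, the list median was 0.02, with 19 higher and 16 lower. All genes past the filter then had a median of 0.06, with 62.9% higher and 37.1% lower. Tbx21, which encodes T-bet, was at 227 at 0.75 µg/ml against 240 in the control. Jun, an AP-1 subunit, was at 188 against 370, and Bhlhe40, a regulator of cytokine production in T cells that is needed for GM-CSF in mouse CD4 T cells, at 1152 against 2157. Irf1 belongs to this list too. Egr2, an antigen receptor-induced factor, was at 106 in the control, 79.5 at the lower and 170 at the higher dose.

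The 15 genes whose products control decay or stability of cytokine transcripts were all above background on every array, with 7 higher and 8 lower at 0.75 µg/ml and 0 past 2-fold (10 higher and 5 lower after centring). Of genes past the level filter, 50.2% were higher and 47.7% lower, or 62.9% and 37.1% after centring. The differences of the 15 genes lay between -0.57 and 0.37. Zc3h12d, which encodes a member of the Regnase family of RNA-degrading proteins, was at 554 at 0.75 µg/ml against 824 in the control, and Ybx1, which encodes an RNA-binding protein that can stabilise transcripts, was at 3801 against 2936. Hnrnpd, which encodes the AU-rich element binding protein AUF1, was at 1164 against 1021, and the decapping enzyme gene Dcp2 at 224 against 254.

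**Figure D4:**
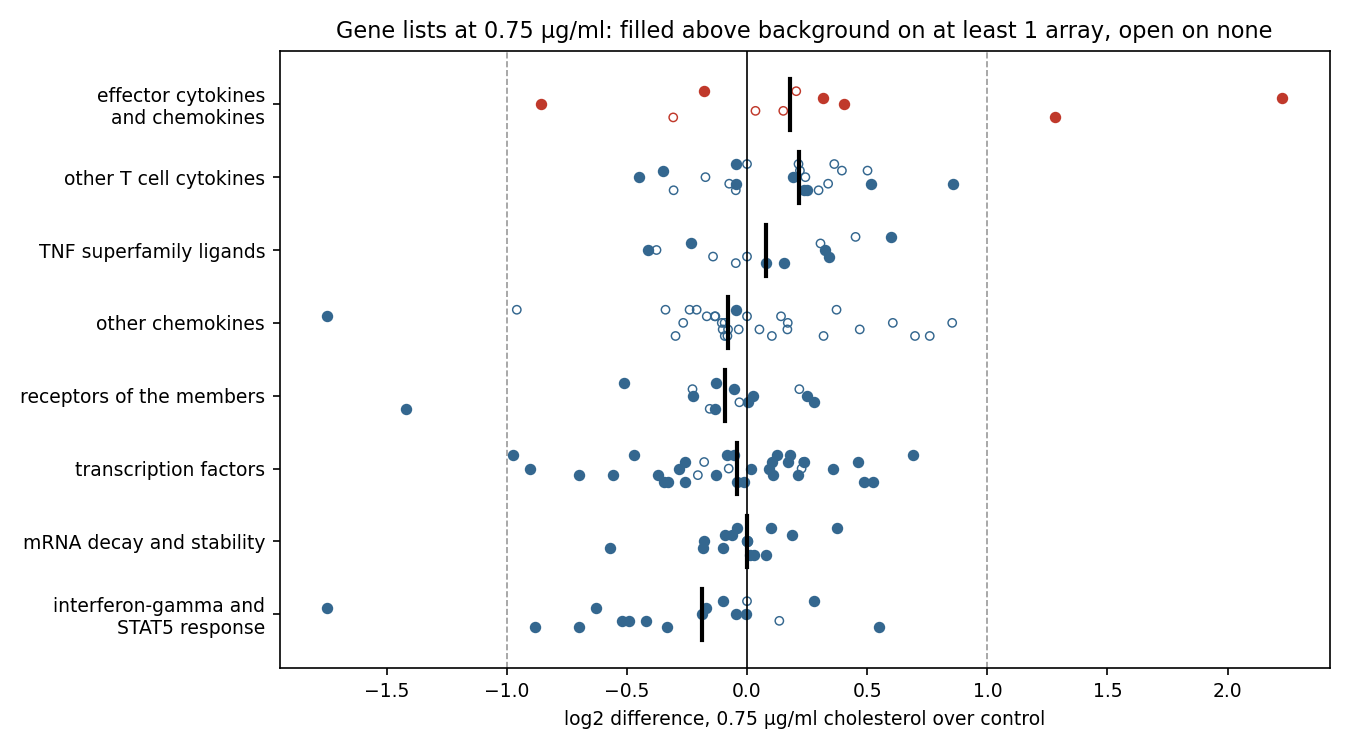
log2 difference at 0.75 µg/ml over the control for each measured gene of 8 lists, filled where the gene was above background on at least 1 array and open where it was not; thick bars are medians over all measured genes and dashed lines mark 2-fold. The effector cytokine and chemokine genes run from -0.86 to 2.23, and the receptor list holds Ifngr2 at -1.42.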

How the data were processed

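The deposited values are linear intensities of 28846 probe sets on each of the 3 arrays, as their range shows. Per the labels' protocols, total RNA was isolated with Trizol, converted to sense-strand whole-transcript targets and biotinylated. How the authors corrected and normalized the intensities, and with which software, is not stated in the labels or the table. The platform annotation gave a single symbol to 19572 of 22206 transcript probe sets and several to 0, and 2634 stay unnamed here. Where a gene had several probe sets, the one with the highest mean stood for it. All 10 members matched a gene identifier in the RefSeq table of GRCm38.p6.

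Log2 was taken of the values as deposited, with no further normalization. Comparisons subtract the log2 value of one array from that of another, with no test. The level filter keeps genes whose mean log2 value reaches the median over all probe sets, 5.02, which 10940 genes did, and 19.8% of negative controls also passed it. Values under 102 were raised to that level for lower bounds of folds.

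The members and lists were chosen with earlier results of these data known. From each list, up to 4 genes above background on at least 1 array with the largest difference at 0.75 µg/ml were named, besides Cd8a, Cd3e, Tbx21, Il2ra and Ifngr1, and Gzmb, at 7611, 7741 and 8136 over the rising doses. The listed CD4 T cell and B cell markers had 1 of 3 and 1 of 5 genes above background in the control, 1 of 3 and 0 of 5 at 0.5 µg/ml, and 1 of 3 and 1 of 5 at 0.75 µg/ml. Counting was tested on simulated data. Alternatives were another floor, quantile normalization, median centring, a pseudocount of 32, averaging of probe sets, another fold threshold and no level filter. The work used Python 3.11.15, numpy 2.4.6, pandas 2.3.3 and matplotlib 3.10.9.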

Additional observations from a re-analysis of the deposited data

How the results depend on the processing

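Quantile normalization and centring each array on its median moved no member difference by as much as the SD of positive-control probe sets between the arrays (0.296 at 0.5 µg/ml and 0.308 at 0.75 µg/ml against the control, 0.299 between the doses), and left the numbers of members past 2-fold as reported, as did dropping the level filter. Averaging probe sets could change no member, since each has 1. Raising dim values to 102 changed the count of members at least 2-fold different to 0 at 0.75 µg/ml against the control and to 0 between the doses, where 1.03% and 0.795% of genes still passed. A pseudocount of 32 left 1 member at 0.75 µg/ml against the control, Csf2 at 1.56, with Ccl3 at 0.94. A 1.5-fold threshold gave 3 members between the doses, where 5.52% of genes passed. No list median moved by as much as the SD of positive controls under any of the 5 settings applied to it. That yardstick could show little, since every list median was itself smaller in size than this SD. At 0.75 µg/ml against the control, the median of the interleukins and other T cell cytokines went from 0.22 to 0.00 with dim values raised. The median of the transcription factors went from -0.04 to 0.02 after centring, while that of all genes past the level filter went from 0.0016 to 0.06. The Csf2 and Ccl3 differences are limited by signal, since both were under background in the control. No array could be left out because each group has 1. No paired analysis was possible because each group has 1 array and the labels carry no replicate numbers.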
